A study of Mus musculus with 6 samples.

Results

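Small nuclear RNAs (snRNAs) were examined in RNA-seq libraries of freshly sorted muscle stem cells (MuSCs), the cells that regenerate skeletal muscle. The genes were taken as the rows of the deposited table whose biotype is snRNA and whose mean over the 6 libraries is at least 5. This held for 200 genes of 493 snRNA rows and of 22706 rows in all. A value is a normalized read count, that is, a read count divided by 1 size factor per library. The 3 groups held 2 libraries each. Control mice were wild type C57BL/6. Mdx mice lack dystrophin through a point mutation of Dmd and serve to model Duchenne muscular dystrophy. Sirt6mKO/mdx mice are mdx mice in which floxed exons of Sirt6, a histone deacetylase gene, are removed by a constitutively active Cre recombinase under the Pax7 promoter (Pax7-ICN-Cre), so that the deletion reaches the whole Pax7 lineage and not MuSCs alone. The labels give C57BL/6 for all groups, and by the methods of the study the mdx allele came from a C57BL/10ScSn stock. By the methods the Sirt6mKO line was also crossed with a ROSA26-YFP reporter. The labels give neither a treatment nor an age for these mice.

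snRNAs are short, abundant, non-polyadenylated RNAs that form the core of the spliceosome together with proteins. U1 pairs with the start of an intron, U2 pairs with the branch point, U4 carries U6 into the complex in a paired state, U6 takes part in catalysis and U5 holds the exon ends together. A small class of introns is removed by a minor spliceosome with U11, U12, U4atac and U6atac in place of U1, U2, U4 and U6, while U5 serves both. U6 and U6atac are made by RNA polymerase III and the other spliceosomal snRNAs by RNA polymerase II. Mammalian genomes hold many copies of these genes, of which some are transcribed and many are relics without a known product.

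The mature sequences that the results turn on are shown here from the GENCODE M21 annotation of GRCm38, as DNA and 5′ to 3′. The first pair are the most abundant U1 gene and the U1 gene with the classical name, and the capitals mark the bases that pair with the intron start (ACTTACCT, sense strand of the gene, found in 30 of 59 U1 members and in 4.34% of 1383 annotated snRNA genes). They differ at 1 base, T60C, with the base of Rnu1a1 first and positions counted from 1 at the 5′ end.
Gm22513 (U1, chr12:54696782-54696945, plus strand): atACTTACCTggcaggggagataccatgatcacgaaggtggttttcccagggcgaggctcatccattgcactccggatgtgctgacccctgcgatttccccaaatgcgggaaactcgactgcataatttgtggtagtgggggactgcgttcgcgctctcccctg
Rnu1a1 (U1, chr11:87422867-87423030, plus strand): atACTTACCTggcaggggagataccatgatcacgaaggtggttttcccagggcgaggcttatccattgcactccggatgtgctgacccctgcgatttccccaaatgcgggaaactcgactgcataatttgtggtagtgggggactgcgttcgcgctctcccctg

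The leading U2 gene is shown with its branch point pairing bases in capitals (GTAGTA, in 14 of 18 U2 members and 3.69% of the annotated genes). In the leading U4 gene the capitals mark the bases that pair with U6 (TTGCGC, in 3 of 5 U4 members and 1.3% of the annotated genes).
Gm25360 (U2, chr1:72226240-72226430, plus strand): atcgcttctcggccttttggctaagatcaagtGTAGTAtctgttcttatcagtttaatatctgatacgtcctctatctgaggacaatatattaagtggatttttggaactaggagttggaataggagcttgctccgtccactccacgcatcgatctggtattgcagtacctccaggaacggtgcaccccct
Gm24265 (U4, chr5:115489459-115489599, plus strand): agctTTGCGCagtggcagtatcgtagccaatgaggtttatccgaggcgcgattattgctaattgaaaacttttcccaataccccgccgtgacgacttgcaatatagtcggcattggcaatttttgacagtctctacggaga

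The minor spliceosome RNAs come from single or nearly single genes, and they are shown since they carry most of their families' reads. The capitals mark the intron start pairing bases of U11 (AAGGG, in 5.79% of the annotated genes) and of U6atac, which lie at positions 12 to 18 and occur in 1.23% of them. They also mark the branch point pairing bases of U12, at positions 18 to 24 (in 1.37%), and the U6atac pairing bases of U4atac (CCATCCTT, in 0.0723%). The reverse complement of the last, AAGGATGG, starts at position 41 of the U6atac RNA. All motifs were searched on the sense strand of the gene alone.
Rnu11 (U11, chr4:132270080-132270213, minus strand): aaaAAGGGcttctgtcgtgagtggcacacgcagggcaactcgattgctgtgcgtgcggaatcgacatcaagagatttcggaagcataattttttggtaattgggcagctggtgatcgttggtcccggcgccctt
Rnu12 (U12, chr15:83149644-83149794, plus strand): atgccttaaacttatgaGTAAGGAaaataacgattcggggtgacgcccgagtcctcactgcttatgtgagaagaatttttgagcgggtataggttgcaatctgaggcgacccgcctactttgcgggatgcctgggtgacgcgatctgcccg
Gm22710 (U4atac, chr1:118459141-118459265, minus strand): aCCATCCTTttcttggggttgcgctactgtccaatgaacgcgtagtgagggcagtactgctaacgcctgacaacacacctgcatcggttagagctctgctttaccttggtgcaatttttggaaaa
Gm25541 (U6atac, chr2:27539805-27539930, minus strand): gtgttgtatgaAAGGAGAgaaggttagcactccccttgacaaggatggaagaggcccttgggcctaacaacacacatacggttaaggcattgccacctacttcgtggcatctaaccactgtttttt

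The depth of the libraries was between 4396599 and 9746350 approximate reads on genes, so that a value of 1 stood for between 0.537 and 1.53 reads. MuSC markers summed to between 21231 and 29029 per library and all 9 were above the minimum mean, while endothelial markers summed to at most 239, leukocyte markers to at most 145 and erythroid markers to at most 91. The mdx libraries were lowest in all 3 of these lists: endothelial markers summed to 239 and 128 (control), 33 and 58 (mdx) and 107 and 166 (labelled Sirt6mKO/mdx), leukocyte markers to 109 and 118, 49 and 54, and 145 and 99, and erythroid markers to 56 and 19, 7 and 14, and 39 and 91. Fibro-adipogenic markers summed to 4388 and 4762 (control), 8193 and 5039 (mdx) and 5696 and 4270 (labelled Sirt6mKO/mdx), and myofibre markers to 5940 and 6761, 4421 and 1332, and 9175 and 3982. Mdx was thus above control in the first list and below it in the second without overlap, while the libraries labelled Sirt6mKO/mdx overlapped both groups. The part of these 5 lists in the snRNA differences was not tested. Sirt6 had values of 41 and 32 (control), 33 and 40 (mdx) and 37 and 30 (labelled Sirt6mKO/mdx), so the values of the 3 groups overlapped. The count covers the whole gene, exons outside the floxed part included, and so does not check the deletion itself. Xist, the RNA of the inactive X chromosome, had values of 16772 and 12950 in control and at most 34 elsewhere, and the Y-linked gene Ddx3y had 3 and 8 in control and at least 1024 elsewhere. Sex and genotype therefore cannot be told apart in either comparison with control. The methods speak of 2 biological replicates. The p-values measure only the spread between these samples, and with 2 libraries against 2 an exact permutation test of a single value cannot go below 0.33.

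The replicates differed in snRNA level as a whole. In control, 177 of the 200 genes were higher in replicate 1, with a median difference of 1.61 on the log2 scale, and in the libraries labelled Sirt6mKO/mdx 175 were higher in replicate 1, with a median difference of 1.0. In mdx 120 were higher in replicate 1, with a median of 0.312. The corresponding medians over all 15915 tested genes lay between 0 and 0.031. The short noncoding RNAs of the nucleolus, the snoRNAs, moved in part with the snRNAs. Their summed value was 1201776 and 688696 (control), 1136014 and 686310 (mdx) and 2566011 and 2505498 (labelled Sirt6mKO/mdx). Protein-coding genes summed to between 3695733 and 4381886 in all 6 libraries. The part of short RNA recovery in the differences described here was not tested. In bulk samples fewer cells of a type and less RNA per cell cannot be told apart.

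Few genes made up most of the snRNA signal. The 15 most abundant of the 200 took 93.8% of their summed value, 14 had a mean of at least 1000, 34 of at least 100 and 155 lay under 50. The median mean was 13.6, against 85.5 for all tested genes. Of the 15 most abundant, 14 were also among the 15 highest per base of annotated length, where Rnu11 took the place of the U1 gene Gm24305. By sequence likeness 59 of the 200 were U1, 18 U2, 5 U4, 8 U5, 100 U6, 2 U11, 2 U12, 1 U4atac and 1 U6atac, and 4 were not placed. U7, which serves the processing of histone mRNA, had 4 rows in the table and no gene at the minimum mean. Just inside the minimum were the U6 genes Gm25312 and Gm26138, both with a mean of 5, and just outside were the U6 genes Gm24144 and Gm24449, both with 4.83.

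Per length, U1 took 39.6% of the mean signal, U5 26.7%, U4 13.6%, U2 7.46%, U6atac 3.84%, U4atac 3.72%, U12 2.44%, U6 1.91% and U11 0.702%. U6, the family with 100 of the 200 genes, was thus among the lowest. The authors left out reads that aligned to several places, which removes reads of copies that share their sequence. Of the 200 genes, 37 held no stretch of 30 bases that was unique among the annotated snRNA genes, 25 of them U6, and 31 had at least 1 other annotated gene with the same sequence. The 15 U6 members identical to Rnu6 each share their sequence with 42 other annotated genes, and their means summed to 178.7. The U6 level is therefore a count of the reads left after this filter, and its place below U4, with which it pairs, cannot be read as a difference between the RNAs.

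U1 had 59 members but drew most of its value from 1 gene. Gm22513 (ENSMUSG00000096349) had normalized read counts of 68989 and 17303 (control), 12228 and 12364 (mdx) and 185995 and 58216 (labelled Sirt6mKO/mdx). It took between 88.5% and 93.5% of the U1 value in every library, although only 15.6% of its 30-base stretches are unique among annotated snRNA genes. Both mdx libraries lay below both control libraries and the groups did not overlap, but the control libraries themselves differed widely. The named gene Rnu1a1 differs from it by 1 base and has the same sequence as 6 other annotated genes. It had 79 and 25, 25 and 17, and 67 and 20. None of its 30-base stretches is unique among annotated snRNA genes, and reads that aligned to several places were left out. Its low value and the large share of Gm22513 therefore cannot be read as levels of the RNAs. Rnu1b2 had a mean of 7.5 and Rnu1b1 a mean of 1.67, which is under the minimum.

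Among U5 genes the leading gene was Gm25099 (ENSMUSG00000095676). It had 2847 and 1636 (control), 11919 and 9273 (mdx) and 37277 and 25402 (labelled Sirt6mKO/mdx). The 3 groups followed each other without overlap. Gm25313 had 1879 and 1229, 4391 and 2740, and 25641 and 9908, and Rnu5g had 1539 and 520, 4175 and 2361, and 12524 and 8997, with the same order of groups. Both lie in an intron of Parp16, on the opposite strand. A second cluster of 3 U5 genes, on chromosome 4 between 117189942 and 117210959, held Gm25099, Gm23143 and Gm23287. Gm23143 had 272 and 157, 2353 and 1847, and 4935 and 4118, and Gm23287 had 45 and 8, 817 and 636, and 1122 and 1000.

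U4 came almost wholly from a pair of neighbouring genes on chromosome 5. Gm24265 had 8029 and 1956 (control), 5828 and 3127 (mdx) and 44832 and 19689 (labelled Sirt6mKO/mdx). Gm24407, which differs from it by G88A and C99A, had 2139 and 488, 2726 and 1121, and 17026 and 6748. Control and mdx overlapped in both genes, and the third group was above both.

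U2 was spread over 4 leading genes, and these did not move alike. Gm25360 had 1440 and 1435 (control), 3853 and 2597 (mdx) and 7243 and 6466 (labelled Sirt6mKO/mdx). Its neighbour Gm25939, an intronic gene of D230017M19Rik on the same strand, had 1820 and 1147, 4329 and 4312, and 5694 and 3438, so that the last pair enclosed the mdx values. Gm22973 on chromosome 12 had 260 and 238, 2826 and 1001, and 8170 and 3850. Gm26316 on chromosome 11 had 227 and 178, 2428 and 935, and 6998 and 4842. In the same cluster on chromosome 11, Rnu2-10, the named U2 gene, had 24 and 19, 8 and 6, and 50 and 24. It differs from Gm26316 only by C170T with the base of Rnu2-10 first. Rnu2-10 has the same sequence as 3 other annotated genes and no unique stretch of 30 bases, so its low values have the same limit as those of Rnu1a1.

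In the minor spliceosome, U6atac (Gm25541) had 2320 and 1245 (control), 5839 and 3781 (mdx) and 8103 and 7361 (labelled Sirt6mKO/mdx). U4atac (Gm22710), which shares its place with an exon of 2900060B14Rik on the same strand, had 1372 and 406, 2685 and 2073, and 13240 and 7754. In both the 3 groups followed each other without overlap. Rnu12 had 2613 and 1036, 1642 and 780, and 10409 and 5330, and Rnu11, which overlaps an exon of Gm28872 on the opposite strand, had 458 and 248, 792 and 577, and 1930 and 1510. For U12 control and mdx overlapped, whereas for U11 they did not. Whether the counting used the strand is not given in the sources used here, so values of overlapping genes are uncertain.

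**Figure D1:**
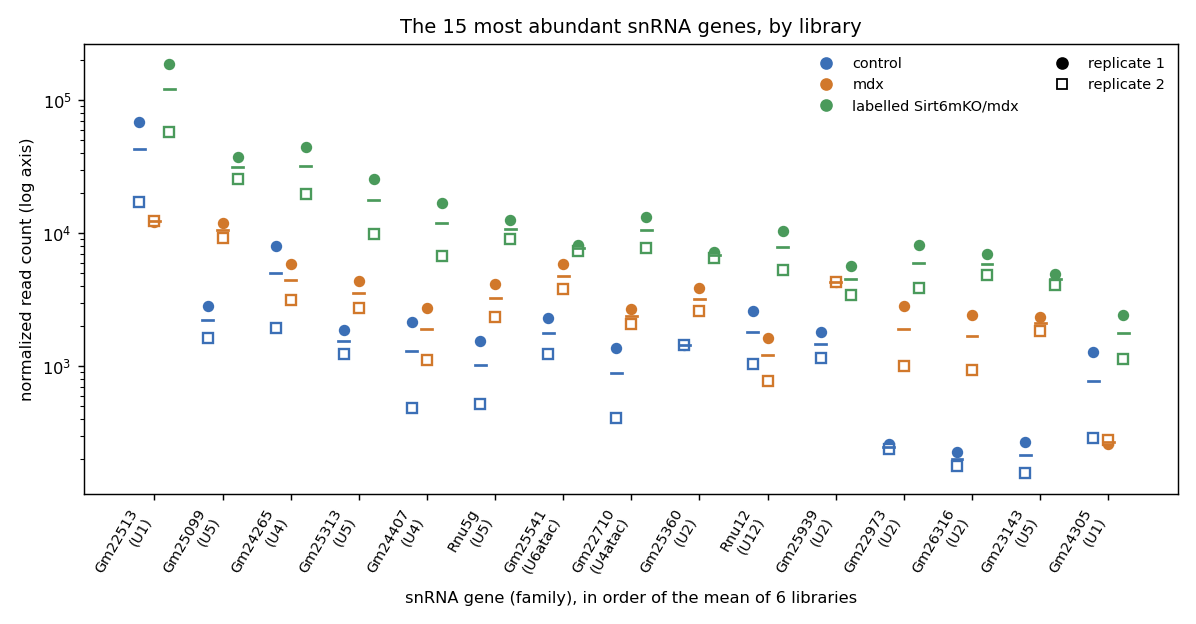
Normalized read count (log axis) of the 15 most abundant snRNA genes in each of the 6 libraries, with the family of each gene. Filled circles are replicate 1, open squares replicate 2 and short lines the mean of the 2 libraries. The libraries labelled Sirt6mKO/mdx lie above both mdx libraries in 14 of the 15 genes, the exception being Gm25939. Over all tested genes 56.0% do not overlap between these 2 groups, in either direction. The 15 genes were ranked by a mean that includes the libraries labelled Sirt6mKO/mdx, which favours genes high there. The order of control and mdx differs between genes: mdx is lower for Gm22513 and higher for the U5 and U2 genes.

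To ask how snRNA levels differ in MuSCs of dystrophic mice, mdx was compared with control. Most U5 genes, the leading U2 genes and U11, U4atac and U6atac were higher in mdx. A gene was called when limma gave an adjusted p (Benjamini-Hochberg over 15915 genes) of at most 0.05 and a fold change of at least 2. On these terms 17 of the 200 snRNA genes were higher, which is 8.50% against 6.89% of all tested genes, and 6 were lower, which is 3% against 7.34%. The share of higher genes was near the background and that of lower genes below it. The median log2 fold change of the 200 was 0.35 against 0.00 for all genes. Of 258 snoRNA genes 68 rose and 10 fell, which is 26.4% and 3.88%. Between mdx and control 69 of the 200 snRNA genes (34.5%) did not overlap, a smaller share than the 57.0% of all tested genes. The choice of control library moved these values both ways: without control replicate 1, 23 of the 200 were higher and 2 lower, with a median of 1.06, and without control replicate 2, 9 were higher and 13 lower, with a median of -0.61. Of the 22 snRNA genes called here that are among the most abundant, the most changed or those with a classical symbol, 9 kept their call in each of the 6 fits that leave out 1 library: Gm23287, Gm22265, Gm23143, Gm25099, Gm26316, Gm22973, Gm25939, Gm22068 and Gm23804. The other 13 lost it at least once, and none changed sign.

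Of the 8 U5 genes 6 rose in mdx, which is 75% against 6.89% of all tested genes, with a median of 2.56 over all 8. Gm23287 rose by 5.15 on the log2 scale (SE 0.50, adjusted p = 8.21e-06), Gm22265 by 3.93 (SE 0.29, adjusted p = 6.11e-07) and Gm25099 by 2.28 (SE 0.42, adjusted p = 0.00204). Rnu5g also rose, by 1.81 (adjusted p = 0.0106), as did Gm23793 with values of 3 and 2 against 27 and 21. Without control replicate 2 the change of Rnu5g was 1.03, and it lay between 1.03 and 2.59 over the 6 fits that each leave out 1 library. Gm25313 did not pass the test, with a log2 fold change of 1.19 (adjusted p = 0.07).

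Of the 18 U2 genes 4 rose, which is 22.2% against 6.89% of all tested genes, and 1 fell, a share of 5.56% near the 7.34% of all tested genes. Gm26316 changed by 2.90 (SE 0.36, adjusted p = 8.57e-05), Gm22973 by 2.75 (adjusted p = 0.000397), Gm25939 by 1.58 (adjusted p = 0.0045) and Gm25360 by 1.14 (adjusted p = 0.0176). The gene that fell was Gm23444, with 50 and 21 (control) against 5 and 3 (mdx), a log2 fold change of -2.77 (adjusted p = 0.0209), and it has no unique stretch of 30 bases.

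In the minor spliceosome U6atac changed by 1.47 (SE 0.36, adjusted p = 0.0116), U4atac by 1.66 (SE 0.45, adjusted p = 0.0196) and Rnu11 by 1.0 (SE 0.30, adjusted p = 0.0333). Without control replicate 2 the changes of U4atac and Rnu11 were 0.78 and 0.56, and Rnu11, at the fold limit, lost its call in 5 of the 6 fits that leave out 1 library. Rnu12 showed a log2 change of -0.54 (adjusted p = 0.443), and neither U4 gene passed the test, with 0.11 for Gm24265 and 0.77 for Gm24407.

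Of the 59 U1 genes 4 fell, which is 6.78% and near the 7.34% of all tested genes. The leading U1 gene, Gm22513, showed a log2 change of -1.49 (SE 0.83, adjusted p = 0.243) and did not pass the test. Gm22068, a U1 gene within an intron of Tex14 on the same strand, had 615 and 271 (control) against 40 and 36 (mdx), and fell by 3.39 on the log2 scale (SE 0.38, adjusted p = 3.02e-05). Gm23804, next to Gm22513 on chromosome 12, had 177 and 76 (control) against 4 and 3 (mdx), and fell by 4.71 (SE 0.73, adjusted p = 0.000498). Gm22068 and Gm23804 have the same sequence as Rnu1a1 and as each other, so that reads inside the RNA cannot tell these genes apart. Gm24924, an intronic gene of Ss18, fell by 1.67 (adjusted p = 0.0423), and its value was -0.87 without control replicate 1. Gm24056, an intronic gene of Rbfox2 with 27 and 27 against 1 and 4, fell by 3.15 (adjusted p = 0.05), and these calls were each lost in 5 of the 6 fits that leave out 1 library. The U1 gene that rose was the rarer copy Gm23738, with 3 and 0 against 20 and 19.

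Among the 100 U6 genes 3 rose and 1 fell, shares of 3% and 1% that lie below the 6.89% and 7.34% of all tested genes. Gm23144 was listed at 0 in both control libraries and had 9 and 18 in mdx, which is at least 3.94-fold higher when each control library is set to 3 reads, a mean value of 3.42. Gm24311, which overlaps an exon of Ccz1 on the opposite strand, had 5 and 2 against 38 and 21. Gm24468, an antisense neighbour within Jak1, had 47 and 19 against 5 and 2.

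The composition of the snRNA pool was then read within each library, where the size factor cancels out. As ratios of summed read counts, not corrected for length, U1 over U5 was 11.3 and 5.23 (control), 0.576 and 0.81 (mdx) and 2.42 and 1.27 (labelled Sirt6mKO/mdx). The geometric mean of the ratio was 11.2-fold higher in control than in mdx. U1 over U2 was 16.1 and 5.03, 0.972 and 1.48, and 6.44 and 3.01, and U1 over U4 was 7.31 and 7.62, 1.62 and 3.27, and 3.21 and 2.4. In all 3 ratios the control libraries lay above the 4 others except that for U1 over U2 the first Sirt6mKO/mdx library, at 6.44, exceeded the second control library. Without Gm22513, U1 over all other snRNAs was still 4.21-fold higher in control than in mdx.

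The pairs of the minor spliceosome shifted too. U12 over U11 was 5.63 and 4.16 (control), 2.05 and 1.35 (mdx) and 5.37 and 3.51 (labelled Sirt6mKO/mdx), so mdx was below both other groups, which overlapped. U4atac over U6atac was 0.591 and 0.326 (control), 0.46 and 0.548 (mdx) and 1.63 and 1.05 (labelled Sirt6mKO/mdx). The share of the minor snRNAs in the summed value was 6.52% and 9.29% (control), 15.1% and 13.7% (mdx) and 8.16% and 11.8% (labelled Sirt6mKO/mdx). These sums describe the libraries and were not tested.

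**Figure D2:**
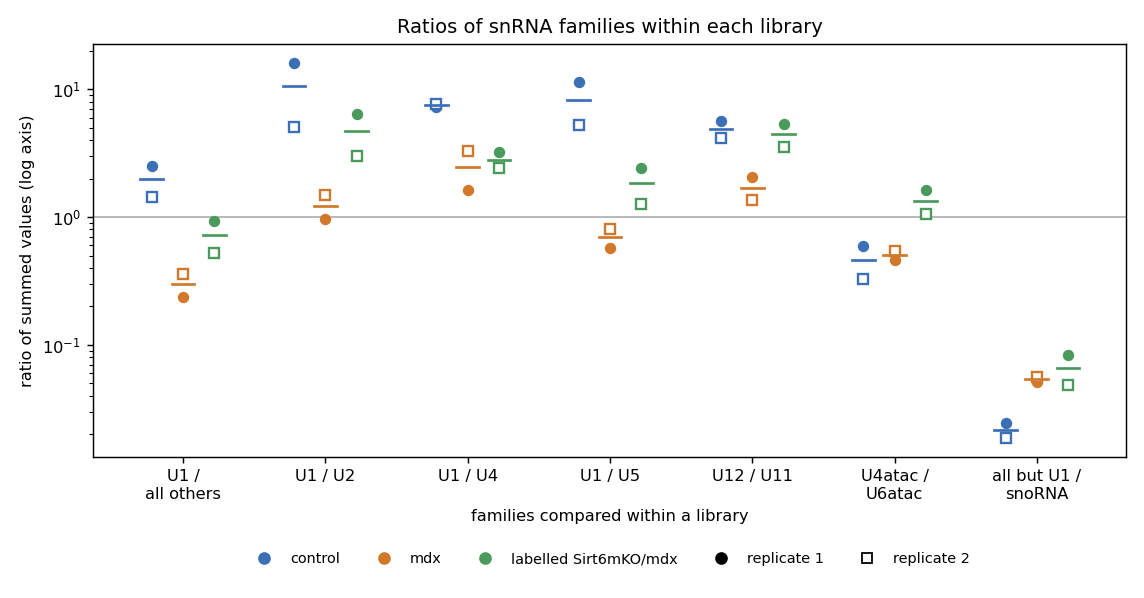
Ratios of summed normalized read counts of snRNA families within each library (log axis, grey line at 1), with filled circles for replicate 1, open squares for replicate 2 and short lines for the mean. U1 over U5 falls from 11.3 and 5.23 in control to 0.576 and 0.81 in mdx, and U12 over U11 is lowest in the mdx libraries.

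To ask what goes with the Sirt6mKO label on the mdx background, the libraries labelled Sirt6mKO/mdx were compared with mdx. Of the 38 snRNA genes with a mean of at least 50 in control or in mdx, a choice that does not use the libraries labelled Sirt6mKO/mdx, 26 rose and 0 fell, and their median log2 fold change was 1.76. By the same test 46 of the 200 rose, which is 23.0% against 5.62% of all tested genes, and 0 fell, against 2.54%. Copies of low level can pass the minimum mean through this group alone: 45 of the 200 had means under 5 in both control and mdx, and 3 of these were among the 46. Genes that pass in this way had to be higher there, so values over all 200 are a description only. In this limma fit 113 of the 200 (56.5%) had an unadjusted p under 0.05 in either direction, against 25.2% of all tested genes. The median log2 fold change was 2.0, against 0.02 over all tested genes, and 172 of the 200 (86.0%) did not overlap between the groups, against 56.0% of all tested genes. In the same comparison 103 of 258 snoRNA genes (39.9%) rose and 0 fell, with a median of 1.35.

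At least 1 gene rose in every family but U6atac and the genes without a family. Of the 59 U1 genes 22 rose, which is 37.3% against 5.62% of all tested genes. As above, counts over genes that had to pass the minimum mean of all 6 libraries are a description only. Gm22513 changed by 3.08 (SE 0.83, adjusted p = 0.0328), Gm24305 by 2.61 (SE 0.50, adjusted p = 0.00463) and Gm22739, an intronic gene of Ccdc170, by 3.72 (adjusted p = 0.0074). Gm25682 had 58 and 53 (mdx) against 817 and 359 (labelled Sirt6mKO/mdx), a change of 3.27 (adjusted p = 0.00165), and overlaps an exon of Gm48281 on the opposite strand. Gm22068 had 158 and 110 against 40 and 36 in mdx, a change of 1.77 (adjusted p = 0.0104).

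For U4 both leading genes rose, Gm24265 by 2.80 (SE 0.59, adjusted p = 0.00875) and Gm24407 by 2.62 (SE 0.58, adjusted p = 0.012). For U5 4 of 8 rose, which is 50% against 5.62% of all tested genes. These were Gm25313 by 2.20 (adjusted p = 0.00538), Rnu5g by 1.76 (adjusted p = 0.0211), Gm25099 by 1.55 (adjusted p = 0.0343) and Gm23143 by 1.11 (adjusted p = 0.0274). For U2 7 of 18 rose, which is 38.9% against 5.62% of all tested genes. Among them were Gm26316 by 1.95 (adjusted p = 0.0042), Gm22973 by 1.74 (adjusted p = 0.018) and Gm25360 by 1.11 (adjusted p = 0.0319). Without mdx replicate 2 the changes of Gm26316 and Gm22973 were 1.26 and 0.99. Gm25939 showed a log2 change of 0.03 (SE 0.33, adjusted p = 0.963), with a 95% interval from -0.67 to 0.74.

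Of the minor snRNAs Rnu12 rose by 2.72 (SE 0.44, adjusted p = 0.00156), U4atac by 2.10 (SE 0.45, adjusted p = 0.0092) and Rnu11 by 1.34 (SE 0.30, adjusted p = 0.0129). U6atac had 0.72 (SE 0.36, adjusted p = 0.227).

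The U6 genes that rose were 8 of 100, a share of 8% near the 5.62% of all tested genes. The most abundant was Gm25008, a copy of 81 bases on chromosome 17, with 83 and 16 (control), 73 and 59 (mdx) and 1453 and 518 (labelled Sirt6mKO/mdx). It changed by 3.70 (SE 0.59, adjusted p = 0.00119), and 71.2% of its stretches of 30 bases are unique among annotated snRNA genes. The others were lower in level. Gm25681 had 9 and 6 against 125 and 61, Gm25412 had 9 and 10 against 152 and 69, Gm23140 had 2 and 2 against 96 and 34, Gm24535 had 1 and 0 against 34 and 22, and Gm23814 had 0 and 1 against 33 and 19. Gm24535 and Gm23814 reached the minimum mean of 5 only through the libraries labelled Sirt6mKO/mdx.

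The number of calls in this comparison rested on single libraries. Of the 25 genes called here that are among the most abundant, the most changed in any comparison or those with a classical symbol, 0 kept a call in each of the 6 fits that leave out 1 library, though none changed sign. The number of calls fell when a library of either compared group was left out, both for the 200 genes and over all tested genes. The median log2 fold change of the 200 genes was 1.51 without Sirt6mKO/mdx replicate 1 and 2.54 without Sirt6mKO/mdx replicate 2. It was 2.16 without mdx replicate 1, 1.85 without mdx replicate 2 and 2.0 without either control library. With no minimum mean, or with 1 prior variance for all genes, limma called 0 snRNA genes, with 81 and 116 of the 200 (40.5% and 58%) at an unadjusted p under 0.05, against 19.3% and 19.8% of all tested genes. With all libraries scaled to 1 snoRNA sum, 12 of the 200 snRNA genes were called, 10 higher and 2 lower, against 7234 of all 15915 tested genes. At an unadjusted p under 0.05 in limma were then 11.5% of the 200, against 54.2% of all tested genes. The median was 0.68 for the 200 genes and -1.45 for all genes. Under this scaling Gm25360 and Gm23143 turned, to -0.41 each, and Rnu11 to -0.19.

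**Figure D3:**
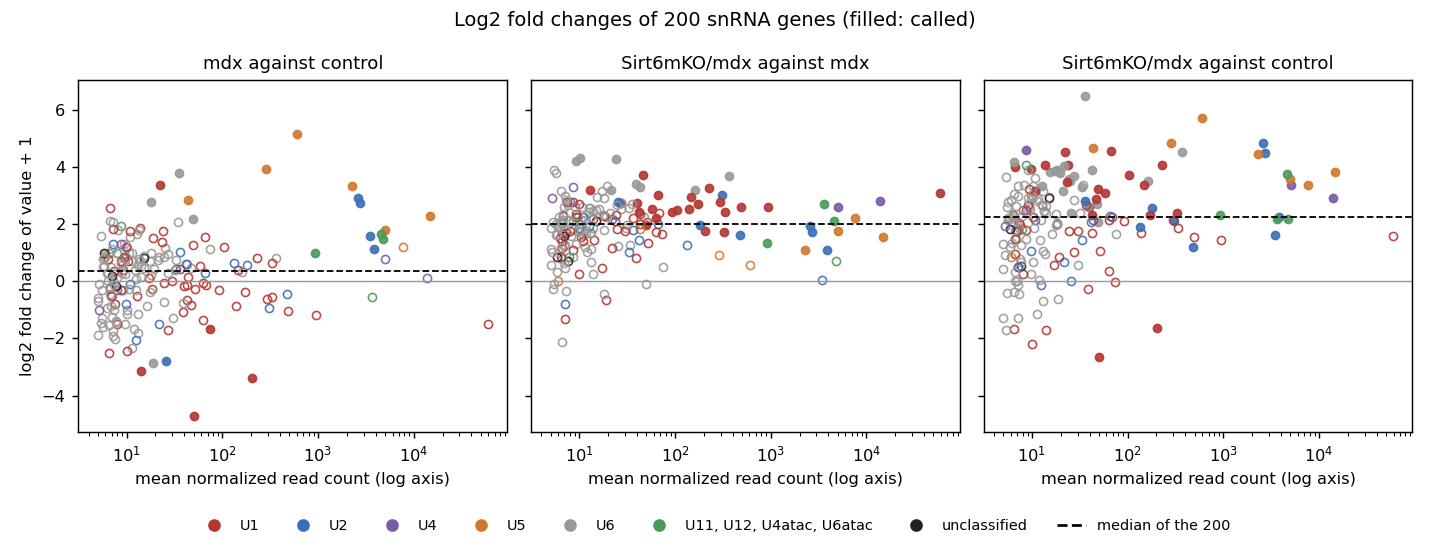
Log2 fold change of value + 1 against the mean normalized read count (log axis) of the 200 snRNA genes in the 3 comparisons, coloured by family and filled where called. The dashed line is the median of the 200 genes, at 0.35, 2.0 and 2.25, and the grey line marks 0. The U5 genes Gm23287 and Gm22265 lie highest in mdx against control, at 5.15 and 3.93, and nearly all genes lie above 0 in Sirt6mKO/mdx against mdx.

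In the third comparison, Sirt6mKO/mdx against control, 61 snRNA genes were higher (30.5%, against 5.19% of all tested genes) and 2 were lower (against 2.68%). Of the 45 genes that passed the minimum mean only through the libraries labelled Sirt6mKO/mdx, 5 were among the 61, so these values too are a description. The median log2 fold change was 2.25, against 0.01 over all tested genes, and leaving out control replicate 1 or 2 gave 2.99 or 1.28. Of the 38 genes with a mean of at least 50 in control or in mdx, 25 were higher and 2 lower. Of 258 snoRNA genes 153 (59.3%) were higher and 0 lower here, with a median of 1.98, so the rise was not particular to snRNAs. This comparison shares its libraries with the previous ones, so its values are given side by side with them and not as further evidence. The U5 genes had the highest family median, 4.14, with 7 of 8 called higher (87.5%, against 5.19% of all tested genes). Gm23287 changed by 5.70 (adjusted p = 7.61e-06), Gm22265 by 4.86 (adjusted p = 1.33e-07) and Gm25099 by 3.83 (adjusted p = 5.99e-05). Of the U2 genes Gm26316 changed by 4.85 (adjusted p = 1.95e-06) and Gm22973 by 4.49 (adjusted p = 1.24e-05), and of the minor snRNAs U4atac changed by 3.76 (adjusted p = 0.000101), U6atac by 2.18 (adjusted p = 0.00144) and Rnu12 by 2.18 (adjusted p = 0.00721).

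Of the 59 U1 genes 18 rose, which is 30.5% against 5.19% of all tested genes, and 2 fell, a share of 3.39% near the 2.68% of all tested genes. The rarer copy Gm23510, in an intron of Frmd4b, had 8 and 4 (control) against 245 and 101 (labelled Sirt6mKO/mdx), a change of 4.56 (adjusted p = 0.000432), whereas Gm22513 had 1.59 (SE 0.83, adjusted p = 0.262) and did not pass the test. The genes that fell share 1 sequence and cannot be told apart by reads inside the RNA. Gm22068 fell by 1.62 (adjusted p = 0.0168) and Gm23804, with 34 and 9 (labelled Sirt6mKO/mdx), by 2.65 (adjusted p = 0.0347). Without control replicate 1 the value of Gm22068 was -1.03, and over the fits that each leave out 1 library Gm23804 lay between -3.55 and -1.74 and lost its call each time. In this comparison 15 of the 29 genes called among the same ones kept their call in all 6 of these fits, and none changed sign. Among U6 genes Gm23144 was at least 27.2-fold higher than in control, where it was listed at 0, and Gm24141, a U4 copy with 19 and 28 that was also listed at 0 in control, was at least 6.87-fold higher. Gm24141 had a mean of 2.5 in mdx and so passed the minimum mean only through the libraries labelled Sirt6mKO/mdx.

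Within a library the U1 genes can be set against Gm22513, which removes the common level. Gm24305, which differs from Rnu1a1 by A26G, stayed between 1.3% and 2.26% of Gm22513 in all 6 libraries, and Gm22220 between 0.763% and 1.36%. Gm22068 was 0.891% and 1.57% of it (control), then 0.327% and 0.291% (mdx), then 0.0849% and 0.189% (labelled Sirt6mKO/mdx). Gm23804 was 0.257% and 0.439%, then 0.0327% and 0.0243%, then 0.0183% and 0.0155%. In the other direction, Gm25682 was 0.0913% and 0.0867% of Gm22513 (control), then 0.474% and 0.429% (mdx), then 0.439% and 0.617% (labelled Sirt6mKO/mdx). In the cluster on chromosome 12 (54696782 to 54734718) Gm24305 followed Gm22513 closely, Gm26444 lay between 0.214% and 0.622% of it, and Gm23804 spanned a 28.4-fold range. Gm22068, Gm26444 and Gm23804 have identical sequences with no unique stretch of 30 bases, so their ratios are uncertain and cannot be read as levels of separate genes.

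**Figure D4:**
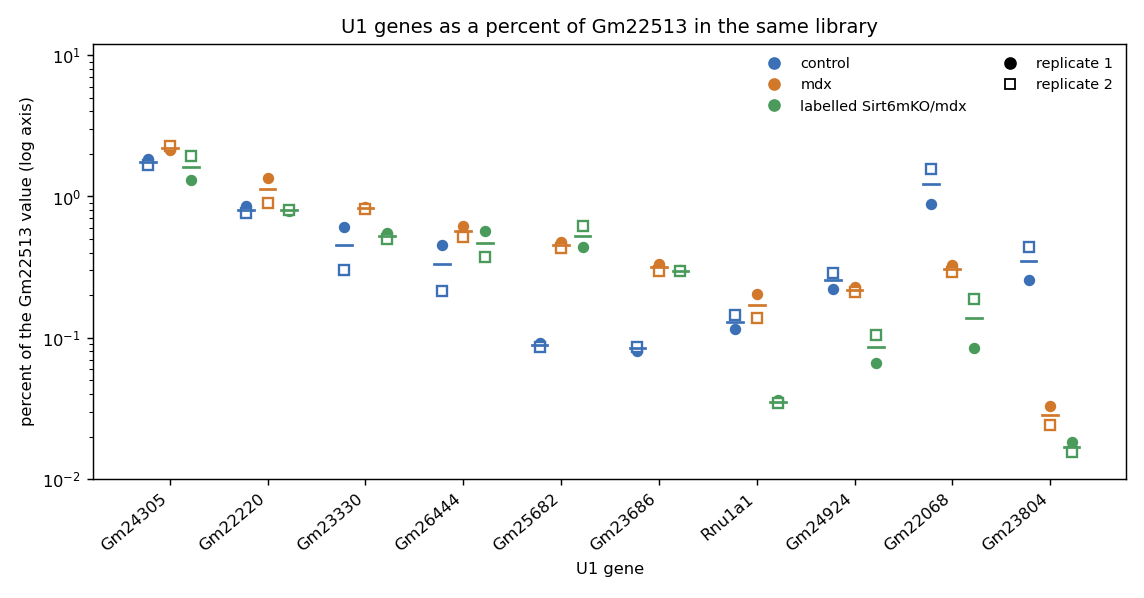
Value of 10 U1 genes as a percent of the value of Gm22513 in the same library (log axis), with filled circles for replicate 1, open squares for replicate 2 and short lines for the mean. Gm24305 stays between 1.3% and 2.26%, while Gm22068 and Gm23804 are highest in the control libraries and Gm25682 and Gm23686 are lowest there.

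The U5 genes also changed their shares. Gm25099 kept between 43.1% and 54% of the U5 value. Gm23287 took 0.681% and 0.224% (control), 3.41% and 3.7% (mdx) and 1.36% and 2% (labelled Sirt6mKO/mdx), and Gm23143 took 4.12% and 4.39%, 9.81% and 10.8%, and 6% and 8.23%. In U2, Gm24497 took 7.97% and 9.13% in control and between 2.22% and 3.33% in the 4 other libraries, while Gm26316 took 4.91% and 4.79% in control and between 9.97% and 23% in the others.

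Sums were taken over all members and over each family. The 200 genes summed to 103874 and 31618 (control), 72519 and 52567 (mdx) and 413427 and 185829 (labelled Sirt6mKO/mdx). U1 summed to 74347 and 18672, 13823 and 13901, and 199012 and 63541. U5 summed to 6607 and 3573, 23984 and 17166, and 82225 and 50019. U6 summed to 1331 and 262, 942 and 637, and 5537 and 2696. Control and mdx overlapped in the total and in U4, U6 and U12, and were apart in U1, U2, U5, U11, U4atac and U6atac. Over the snoRNA sum the 200 genes had ratios of 0.0864 and 0.0459 (control), 0.0638 and 0.0766 (mdx) and 0.161 and 0.0742 (labelled Sirt6mKO/mdx), and the groups overlapped. U1 over the snoRNA sum was 0.0619 and 0.0271, 0.0122 and 0.0203, and 0.0776 and 0.0254, lowest in mdx. The ratio of all genes other than U1 to the snoRNA sum was 0.0246 and 0.0188 (control), 0.0517 and 0.0563 (mdx) and 0.0836 and 0.0488 (labelled Sirt6mKO/mdx).

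**Figure D5:**
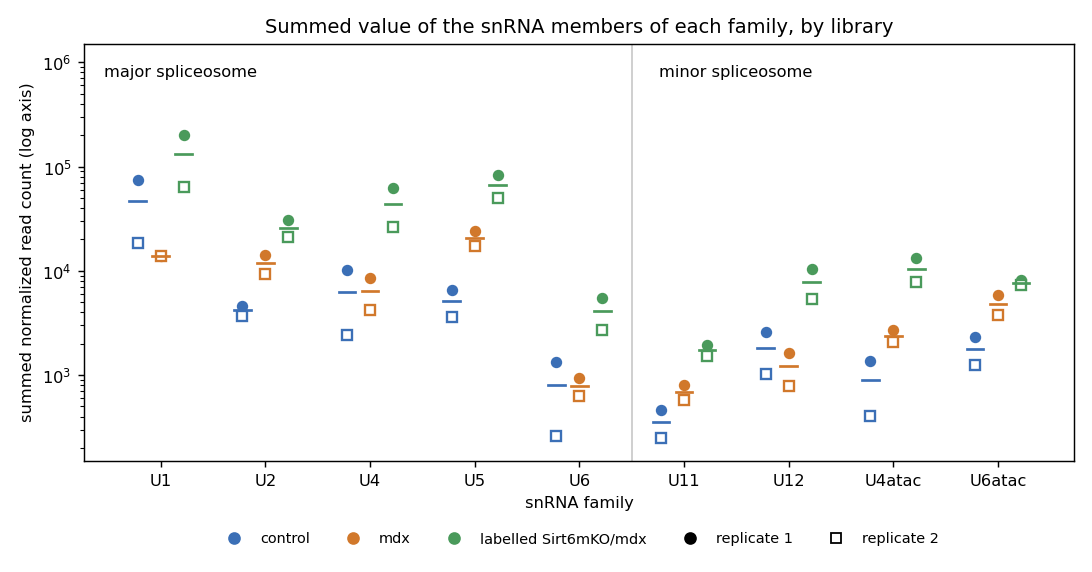
Summed normalized read count (log axis) of the snRNA genes of each family in each library, with filled circles for replicate 1, open squares for replicate 2 and short lines for the mean. U1 is lowest in mdx, at 13823 and 13901, while U2, U5, U11, U4atac and U6atac are in the order of control, mdx and the libraries labelled Sirt6mKO/mdx from low to high.

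Sequence and place were then set beside level. The 30 U1 genes with the intron start pairing bases took 97.4% of the U1 value, with a median mean of 43.2 against 13.8 for the 29 without. The 14 U2 genes with the branch point pairing bases took 98.4% of the U2 value, and the 3 U4 genes with the U6 pairing bases took 99.9% of the U4 value. Gm22513, which has the U1 pairing bases, alone held 92.6% of the U1 value, and Gm24265 and Gm24407 held nearly all of the U4 value. The U1 and U4 shares therefore rest on these few genes. Of the 200 genes 107 lay within another gene and 11 overlapped an exon of one. In all, 31 lay in 12 groups of members within 100000 bases of each other, among them all 4 U1 genes of the cluster named above, a group of 4 U2 genes on chromosome 11 (101604850 to 101658428), a group of 3 U2 genes on chromosome 1 (72226240 to 72255198) and the U4 pair.

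The proteins that bind and make snRNAs were counted in the same fit. Of 103 tested genes for snRNP proteins, snRNA transcription, 3′ end processing and assembly, 4 rose and 4 fell in mdx against control, 3 rose and 6 fell in Sirt6mKO/mdx against mdx, and 4 rose and 6 fell in Sirt6mKO/mdx against control. In percent, 3.88% and 2.91% of them rose in the first and second comparison, below the 6.89% and 5.62% of all tested genes, while 3.88%, 5.83% and 5.83% fell in the 3 comparisons, against 7.34%, 2.54% and 2.68% of all tested genes. The medians were 0.04, -0.22 and -0.14. Snrnp27, a gene of the U4/U6.U5 particle, rose by 1.41 in mdx (adjusted p = 0.00917). In mdx, Snrpe, which codes for a protein of the Sm ring around most snRNAs, rose by 1.39 (adjusted p = 0.00719), and Snrpb2, a U2 protein gene, by 1.27 (adjusted p = 0.00668). Snrpa, which codes for a protein of the U1 particle, had 154 and 148 (control) against 67 and 40 (mdx) and fell by 1.52 on the log2 scale (adjusted p = 0.0106). Nhp2l1, whose protein binds U4 and U4atac, fell by 2.05 (adjusted p = 0.00157), and Zfp473, whose protein acts with the U7 particle, by 2.65 (adjusted p = 0.00922).

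In Sirt6mKO/mdx against mdx, Zfp473 rose by 2.64 (adjusted p = 0.0168), from low values of 9 and 5 (mdx) to 43 and 52 (labelled Sirt6mKO/mdx). Nhp2l1 rose by 1.51 (adjusted p = 0.0198) and Ints6, a subunit gene of the Integrator complex that cuts snRNA precursors, by 1.36 (adjusted p = 0.00878). With 1 prior variance for all genes, none of the 15915 genes was called in this comparison. Calls of protein genes were not followed over the fits that leave out 1 library. Narg2, a gene for a subunit of the little elongation complex for snRNA transcription, had 323 and 267 in mdx and 93 and 89 in the third group and fell by 1.68 (adjusted p = 0.00366). Ncbp2, a cap-binding protein gene of snRNA export, fell by 1.48 (adjusted p = 0.0101) and Ints10 by 1.4 (adjusted p = 0.0199). Against control, Snrpb2 and Snrpe were again higher, by 1.80 (adjusted p = 0.000978) and 1.78 (adjusted p = 0.00248), and Ints9, Ncbp2 and Ints2 were lower, with log2 fold changes of -1.43, -1.21 and -1.2.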

How the data were processed

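RNA of MuSCs, sorted from muscle by flow cytometry, was depleted of ribosomal RNA and sequenced with the Ion Total RNA-Seq Kit v2 as the labels and methods state. By the methods and the submitters' processing notes, the authors used FastQC 0.10.1, STAR (version 2.4.2a in the notes, another in the methods) against mm10 (GRCm38), featureCounts 1.4.5-p1 and DESeq2, and left out reads on several genes or places. The deposited values are whole numbers and were taken as a score: read counts that the authors divided by a size factor and rounded. Count tests were therefore not used. Size factors between 0.537 and 1.53, and from them the depth, were recovered from the pattern of skipped whole numbers.

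Genes with a mean of at least 5 were fitted with limma 3.58.1 (R 4.3.3) on log2(value + 1), letting the prior variance follow the mean, all 6 libraries in 1 fit and Benjamini-Hochberg adjustment over 15915 genes. A fold change on this scale understates that of low values. All p-values are two-sided. The test was also run on simulated data in which genes varied independently. Those data lacked the common shift of snRNA genes between replicates, so that run does not show how reliable the snRNA calls are. Families were set with blastn 2.17.0 against genes with a classical symbol. The reference genes of U4 (Gm24265), U4atac (Gm22710) and U6atac (Gm25541) have none and were recognised from their sequence after it was read. All 493 snRNA rows have the position of GENCODE M21, whose transcripts gave the sequences, and uniqueness was judged among its 1383 snRNA genes, not over the genome.

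Named genes are the 15 most abundant, up to 8 called genes per direction and comparison, those with classical symbols, those at the minimum and up to 3 called protein genes per direction and comparison. Genes of the U1 and U2 accounts outside this rule (Gm22220, Gm23686, Gm24497 and Gm26444) were chosen after their values were seen. The members and the lists were chosen with earlier results of these data known. Alternatives were another pseudocount, minimum mean, scaling, prior variance or set of libraries, and a replicate block. Some sequences are not reported here.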

Additional observations from a re-analysis of the deposited data

How the results depend on the processing

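The numbers of called snRNA genes are given for mdx against control, Sirt6mKO/mdx against mdx and Sirt6mKO/mdx against control, in that order, against 23, 46 and 63. Without a minimum mean they were 3, 0 and 1, with 81 genes (40.5%, against 19.3% of all genes) at an unadjusted p under 0.05 in the second comparison. With limma and one prior variance for all genes they were 8, 0 and 10, with 116 such genes (58%, against 19.8%) in the second, where none of all 15915 genes was called. With snoRNA scaling the second was 12 and the third 40, against 7234 and 6992 of all 15915 tested genes. With snRNA geometric mean scaling, which was chosen after seeing the data, they were 9, 3 and 26, with 4, 0 and 10 higher. With only the 2 groups compared in the fit, the second was 70. Leaving out 1 library gave between 10 and 25, between 2 and 65, and between 18 and 85. In mdx against control the count fell to 10 without mdx replicate 1 and to 12 without mdx replicate 2, and without control replicate 2 it had 9 higher and 13 lower. In Sirt6mKO/mdx against control it fell to 18 and 23 without Sirt6mKO/mdx replicate 1 or 2, to 28 without control replicate 2 and to 40 without either mdx library. The other pseudocounts, a minimum mean of 10, total counts, the upper quartile, a robust prior variance and the adjusted p alone stayed within 1.5 times of each count. Total counts moved the median of all genes in the second comparison to -0.58. The replicate numbers did not pair the libraries (correlations of the deviations -0.128, 0.119 and 0.009 over all tested genes, and 0.151, 0.1 and 0.065 over the 200 snRNA genes), and with a replicate block the counts were 26, 59 and 82.

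Called genes that turned in Sirt6mKO/mdx against mdx with snoRNA scaling were Gm25360 (-0.41), Gm23143 (-0.41) and Rnu11 (-0.19). With snRNA geometric mean scaling those that turned were Gm25099 (-0.51), Rnu5g (-0.31), Gm25360 (-0.95), Gm22973 (-0.33), Gm26316 (-0.11), Gm22068 (-0.26), Rnu11 (-0.73) and Gm23143 (-0.95) there, and Gm25541 (-0.33), Gm25360 (-0.26), Rnu12 (-0.33), Rnu11 (-0.17) and Gm25939 (-0.89) against control. That scaling sets the snRNA level of all libraries equal by construction and leaves differences from their mean. The summed value, at 0.923 for mdx over control, was 2.04 without Gm22513. The other causes were not tested. With 2 libraries per group and most copies under a value of 50, depth limits what can be said of single copies.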
